A study of Mus musculus with 4 samples.

Results

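The genes described here encode the channels and the exchanger that turn an odorant signal into a current in olfactory sensory neurons: Cnga2, Cnga4, Cngb1, Ano2 and Slc24a4. They were taken by name and are 5 of the 49671 genes in the deposited tables. The study sequenced dissociated cells of the mouse olfactory epithelium, the sensory lining of the nose, from the outbred strain CD-1, 1 library for each of 4 ages: day 0 after birth (P0), day 3 (P3), day 7 (P7) and day 21 (P21). No genotype or treatment is named, and the samples are described as sorted without the gate. How many mice, and of which sex, went into a library is not stated in the sources used here. Age and library therefore cannot be told apart, and every difference between ages below is one between libraries.

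An odorant receptor activates the G protein subunit encoded by Gnal, which stimulates the adenylyl cyclase encoded by Adcy3. The cyclic AMP it makes opens a cyclic nucleotide-gated channel in the cilia, through which calcium enters. Cnga2 encodes the principal subunit, which can form a channel by itself, while Cnga4 and Cngb1 encode modulatory subunits that raise the sensitivity to cyclic AMP and allow rapid feedback by calcium-calmodulin. Ano2 encodes a calcium-activated chloride channel that amplifies the current, and Slc24a4 encodes a potassium-dependent sodium-calcium exchanger that helps to end the response. Olfactory neurons mature from basal precursors through a stage that expresses Gap43, a protein of growing axons, to a stage that expresses Omp, olfactory marker protein.

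Sequences around the gene starts are shown because all 5 genes rose along this path, although not in step, as described below. They come from RefSeq on GRCm38.p6, in windows of 250 bases before to 50 bases after each start. Capitals mark CCCNNGGG, the palindromic core of the motif of the Olf/EBF factors, which was chosen with the results known and searched on both strands. The 250 bases upstream of Cnga2, chrX:71991599-71991848 on the plus strand, were:
Cnga2: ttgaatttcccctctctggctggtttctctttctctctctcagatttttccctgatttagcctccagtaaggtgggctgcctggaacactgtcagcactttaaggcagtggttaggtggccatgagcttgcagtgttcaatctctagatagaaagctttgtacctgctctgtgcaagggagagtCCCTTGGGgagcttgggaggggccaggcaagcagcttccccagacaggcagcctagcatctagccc
The 30 bases around the match in the other members, each on its gene's strand, were:
Cnga4: cgcagctggagCCCCAGGGcagcttcttcc
Cngb1: acactgctggaCCCGTGGGggttgctgctt
Ano2: caagggaacacCCCGAGGGatggaggcagg
Slc24a4: ctgggcgagcgCCCTAGGGgaggtgtacac

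These lie at chr7:105404581-105404610 (plus strand), chr8:95306696-95306725 (minus), chr6:125711110-125711139 (plus) and chr12:102128607-102128636 (plus). Relative to the RefSeq transcript start of the window that holds it, the match began at -66 in Cnga2, at 24 in Cnga4 (inside the transcribed part), at -129 in Cngb1, at -67 in Ano2 and at -109 in Slc24a4. For Ano2 that start lies inside the annotated GENCODE gene span, not at its 5' end. All 5 genes had a match in at least 1 of their windows, in 5 of 7 windows, against 13.7% of 32851 windows of the same length and 15.4% of genes. The longer form of the motif, the core with a T before and an A after it, was in 0 of the 7 windows and in 0.904% of all. TAATTA, a homeodomain core, was in 0 of the 7 and in 5.29% of all. A match describes these letters only.

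In the GENCODE annotation of GRCm38, Cnga2 spans positions 71991849 to 72010218 of chromosome X, Cnga4 105404568 to 105408742 of chromosome 7 and Cngb1 95239045 to 95306585 of chromosome 8. Ano2 spans 125690419 to 126040126 of chromosome 6 and Slc24a4 102128733 to 102267091 of chromosome 12. Cngb1 has 10 annotated transcripts, and counts from the 3' end do not separate its olfactory form from the form of rods. Slc24a4 overlaps the antisense genes Gm16339 and Gm25203, which together had 155 unique molecular identifiers (UMIs, 1 per captured transcript) over all cells. The strand setting of the counting is not stated in the sources used here, so reads of these genes and of Slc24a4 may not be separated.

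The libraries held 2703, 3220, 1787 and 1416 cells in age order, with 6861044 to 17770838 UMIs each. Each cell was thinned to 1500 UMIs only to sort it by stage. Gap43 cells had at least 2 Gap43 UMIs and under 2 of Omp (671, 496, 365 and 127 cells in age order), both-positive cells at least 2 of each (164, 150, 75 and 74), and Omp cells at least 2 of Omp and under 2 of Gap43 (322, 345, 345 and 792). Precursors had at least 2 UMIs of Neurod1, a factor of neuronal precursors, and under 2 of the other 2 genes (134, 312, 90 and 25 cells). Cells with 5 or more UMIs of 13 markers of stroma, basal cells, glia, leukocytes, supporting and gland cells served as a non-neuronal comparison. The 7 immature-neuron markers summed to between 11578 and 13056 CPM (UMIs scaled by the total of the summed cells) in Gap43 cells and 2161 to 2974 CPM in Omp cells, and the 6 mature-neuron markers to 1556 to 2814 and 17771 to 25094 CPM. Gap43 and Omp are themselves among these markers. Stmn4, listed as an immature-neuron marker, was higher in Omp than in Gap43 cells in 3 of 4 libraries, and Tex15, listed for precursors, was higher in Gap43 cells than in precursors in 3 of 4. P0 and P3 share 68 cell barcodes and the other pairs of libraries 1 to 9; without those cells no call on the 5 genes changed. Doublet calls covered only 0.723% of all cells, so doublets remain and may be among the both-positive cells. How far they shape that class was not tested.

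The principal subunit gene Cnga2 was already present in Gap43 cells. Its level there was 290, 299, 244 and 395 CPM in age order. In both-positive cells it stood at 621, 690, 583 and 911 CPM, and in Omp cells at 797, 774, 858 and 1301 CPM. In each library the 3 stages kept this order, although across libraries both-positive and Omp cells overlapped, and the P21 library was highest at every stage. Precursors had 0 to 5.84 CPM and non-neuronal cells 3.73 to 15.8 CPM, so Gap43 cells stood above the non-neuronal level in each library. Cnga2 rose from Gap43 to both-positive cells by 1.24 on the log2 scale (SE 0.0767, adjusted p = 7.83e-14 in edgeR's quasi-likelihood test with Benjamini-Hochberg adjustment over 10134 genes and library as a block). From both-positive to Omp cells it rose by a further 0.49 (SE 0.0729, adjusted p = 1.03e-05 in the same edgeR test), higher in 4 of 4 libraries. That last step did not pass without the library block (adjusted p = 0.109) or in cells of at least 4000 UMIs (adjusted p = 0.0784), where edgeR gave log2 differences of 0.50 and 0.51.

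**Figure D1:**
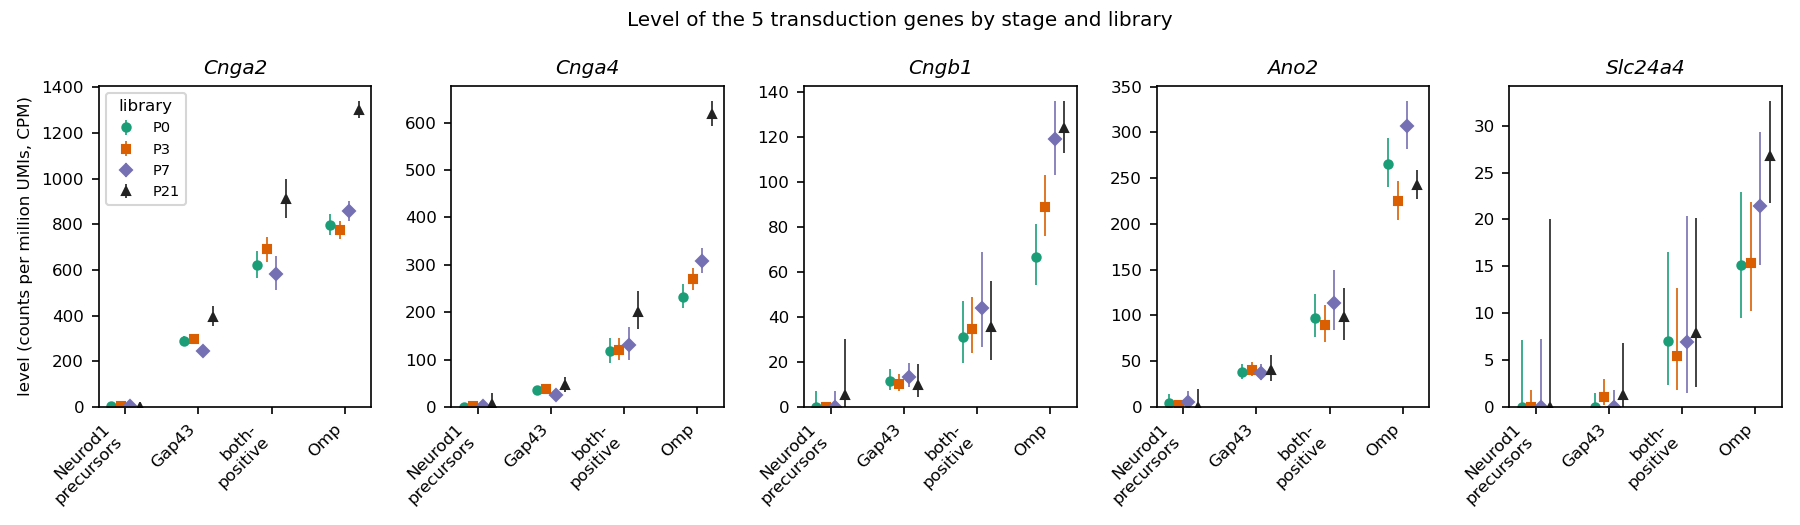
Level of each gene (CPM) in Neurod1 precursors and the 3 neuronal stages, with 1 symbol per library and 95% exact Poisson bars that cover counting error only; each panel has its own axis. Cnga2 is at 244 to 395 CPM in Gap43 cells, and the P21 library lies apart from the others in Omp cells for Cnga2 (1301 CPM) and Cnga4 (619 CPM).

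The modulatory subunit gene Cnga4 was low in Gap43 cells, at 34.9, 37.0, 24.5 and 45.3 CPM in age order. It reached 117, 121, 130 and 201 CPM in both-positive cells and 233, 269, 308 and 619 CPM in Omp cells. The stages did not overlap, since the highest library of each lay below the lowest of the next. Cnga4 rose by 3.34 on the log2 scale from Gap43 to Omp cells (SE 0.143, edgeR adjusted p = 6.77e-11), of which 1.96 lay before the both-positive stage and 1.37 after it.

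Cngb1, the other modulatory subunit gene, stood at 11.6, 10.3, 13.5 and 9.79 CPM in Gap43 cells. Both-positive cells had 31.1, 34.8, 44.1 and 35.6 CPM, and Omp cells 66.7, 88.9, 119 and 124 CPM. Again the stages did not overlap. Non-neuronal cells had 0.932 to 3.34 CPM, from 6 UMIs in all. The difference between Omp and Gap43 cells was 3.19 on the log2 scale (SE 0.144, edgeR adjusted p = 6.41e-18).

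The chloride channel gene Ano2 was nearly level across ages in Gap43 cells, at 37.9, 40.8, 37.4 and 40.4 CPM. It stood at 97.5, 89.1, 114 and 98.8 CPM in both-positive cells and at 266, 225, 307 and 243 CPM in Omp cells, with no overlap between stages. Ano2 rose by 2.86 from Gap43 to Omp cells on the log2 scale (SE 0.0960, edgeR adjusted p = 6.00e-21). Unlike Cnga2 and Cnga4, it was not highest in the P21 library.

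Slc24a4, the exchanger gene, was rare. Gap43 cells held 4 UMIs in all (0, 3, 0 and 1 in age order), both-positive cells 17 and Omp cells 187. The level in Omp cells was 15.1, 15.3, 21.4 and 26.8 CPM, and in both-positive cells 7.07, 5.43, 6.97 and 7.90 CPM. In Gap43 cells it was 1.03 CPM at P3 and 1.22 CPM at P21, and the 0 UMIs at P0 allow a level of up to 1.25 CPM when taken as 3 UMIs (the exact two-sided Poisson bound is 1.53 CPM). Non-neuronal cells had 0.744 to 6.68 CPM, so Slc24a4 was not detectable above that background in Gap43 cells, and in both-positive cells its intervals overlap it. In the edgeR test Slc24a4 rose at both steps (both-positive against Gap43 cells adjusted p = 2.74e-05, Omp against both-positive cells 0.00149). Against the 0 UMIs of the P0 and P7 Gap43 cells no fold is given. The later step was 1.57 on the log2 scale (SE 0.354), and with a gate of 3 UMIs it did not pass (edgeR adjusted p = 0.0845).

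All 5 genes thus rose in each of the 3 stage comparisons. This is to be read against the background: of 10134 genes, 28.7% rose from Gap43 to Omp cells (57.7% changed in either direction), 17.8% from Gap43 to both-positive cells (33.5%) and 10.4% from both-positive to Omp cells (19.9%). The median log2 difference of the 5 genes was 3.19, 1.67 and 1.47, beside -0.02, -0.02 and 0.01 over all genes tested.

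To set the order of onset, the level in a stage was expressed as a percentage of the level in Omp cells of the same library. In Gap43 cells Cnga2 had reached 33.4% ± 4.85 of its Omp-cell level (SD, n = 4 libraries). Ano2 had reached 15.3% ± 2.63, Cngb1 12.1% ± 3.96, Cnga4 11.0% ± 3.94 and Slc24a4 2.83% ± 3.38. In age order Cngb1 was at 17.5, 11.6, 11.4 and 7.91% and Cnga4 at 15.0, 13.7, 7.95 and 7.32%, lower in each later library. Cnga2, Ano2 and Slc24a4 showed no such order. The Omp-cell level that divides these values was higher in each later library for Cngb1 (66.7 to 124 CPM) and Cnga4 (233 to 619 CPM). Its part in the lower percentages was not tested. Cnga2 was the highest and Slc24a4 the lowest in 4 of 4 libraries. The place of Slc24a4 rests on 4 UMIs, and in 3 of 4 libraries its counting interval (upper bounds of 11.0, 21.7, 9.05 and 26.1% in age order) covered the value of Cnga4. Ano2, Cngb1 and Cnga4 changed places between libraries, and their means with SD overlapped. Cnga4 was above Ano2 in 1 of 4 libraries. At P21 the counting intervals of Ano2 (11.4 to 23.5%) and Cnga4 (5.14 to 10.1%) did not overlap. With 4 libraries, a two-sided exact sign test cannot go below p = 0.125, and the order is given as a description.

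In both-positive cells Cnga2 stood at 76.2% ± 9.59 of its Omp-cell level (SD, n = 4). Cnga4 was at 42.5% ± 7.46, Ano2 at 38.5% ± 1.95, Cngb1 at 37.9% ± 7.35 and Slc24a4 at 36.1% ± 7.49. Here too Cnga4 (50.5, 44.7, 42.3 and 32.6% in age order) and Cngb1 (46.6, 39.1, 37.2 and 28.7%) were lower in each later library. So was Slc24a4, on few UMIs, while Cnga2 and Ano2 showed no such order. Cnga2 had the highest percentage in 4 of 4 libraries and the other 4 genes overlapped. Slc24a4 rested on 5, 5, 3 and 4 UMIs in age order. Its counting intervals (13.8 to 126, 10.8 to 93.0, 6.44 to 103 and 7.88 to 78.0%) covered the Cnga2 value in each library.

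Cells were also ordered more finely, by the share of Omp among their thinned Omp and Gap43 UMIs, in 6 bins. Only cells with at least 4 such UMIs and under 3 of the non-neuronal markers entered. The bins use the same UMIs as the stages, so they are not an independent check of the order. At a share of 0, Cnga2 was at 30.3% ± 4.31 of its level in the last bin (SD, n = 4). Omp itself was at 3.30%, a low value set by the choice of cells without thinned Omp UMIs. It therefore does not order the onset of Cnga2 and Omp. At a share of up to 0.25, Cnga2 was at 57.9%, Cnga4 at 21.3%, Cngb1 at 19.3% and Ano2 at 22.8%. Between 0.5 and 0.75, Cnga2 had reached 82.4% while Cnga4 was at 43.5% ± 10.6 (up to 58.1% at P0), Cngb1 at 36.5% ± 11.7 (up to 52.3% at P3) and Ano2 at 35.5% ± 4.41. In the bin from 0.75 to under 1, Cnga4 stood at 75.2% ± 18.5, Cngb1 at 64.6% ± 24.5 and Ano2 at 63.8% ± 8.48. Slc24a4 had too few UMIs for this view, with an SD of 46.3 percentage points between 0.5 and 0.75.

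**Figure D2:**
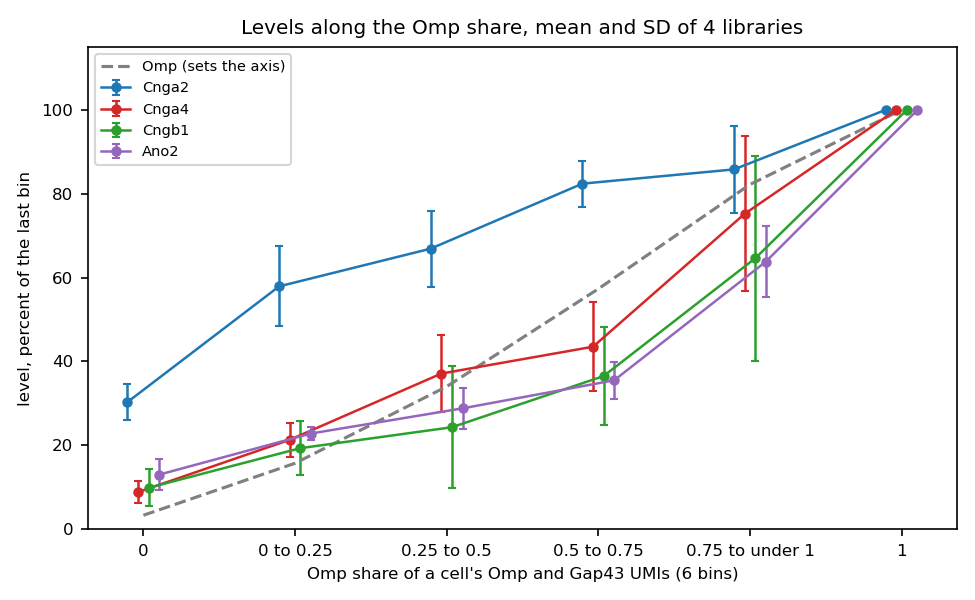
Level of 4 genes (percent of the level in the last bin of the same library) against the Omp share of a cell's Omp and Gap43 UMIs, in 6 bins, as mean and SD of 4 libraries; the dashed line is Omp, which sets the axis. Cnga2 runs above the other 3 genes until the last bins (57.9% against 19.3 to 22.8% at a share of up to 0.25).

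Gap43 cells were also split by their thinned Omp UMIs. Cells with 0 were not free of Omp: over all their UMIs it stood at 150, 151, 85.7 and 286 CPM in age order, against 627 to 746 CPM in cells with 1. In cells with 0 thinned Omp UMIs, Cnga2 was at 239, 236, 200 and 314 CPM in age order. With 1 it was at 473, 516, 489 and 621 CPM. Cnga4 in the same cells was at 17.6 to 34.9 CPM with 0 thinned Omp UMIs and at 59.8 to 74.2 CPM with 1, and Ano2 at 29.9 to 39.9 and 41.7 to 79.9 CPM.

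Ratios between the genes followed from these different courses. A 3' library counts each transcript by its end, so levels are not scaled by length. The capture of each 3' end is unknown, so a ratio is compared between stages and libraries and not read as a ratio of proteins. Per 100 Cnga2 UMIs, Gap43 cells held 12.1, 12.4, 10.0 and 11.5 of Cnga4 in age order. Both-positive cells held 18.9, 17.5, 22.3 and 22.1. Omp cells held 29.2, 34.8, 35.8 and 47.5. The 3 stages did not overlap, and the ratio was 2.42 to 4.15 times higher in Omp than in Gap43 cells, with the counting interval above 1 in 4 of 4 libraries.

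For Cngb1, the number per 100 Cnga2 UMIs was 4.02, 3.43, 5.53 and 2.48 in Gap43 cells and 8.37, 11.5, 13.8 and 9.51 in Omp cells, a ratio 2.08 to 3.84 times higher. For Ano2 it was 13.1, 13.6, 15.4 and 10.2 in Gap43 cells, 15.7, 12.9, 19.5 and 10.8 in both-positive cells and 33.4, 29.0, 35.8 and 18.7 in Omp cells. The Ano2 ratio differed little over the earlier step (0.948 to 1.27 times, with no interval above 1) and was 1.72 to 2.25 times higher over the later one in 4 of 4 libraries. Cnga4 over Cnga2 moved at both steps, 1.41 to 2.22 times and 1.54 to 2.15 times, with 4 of 4 intervals above 1 at each.

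**Figure D3:**
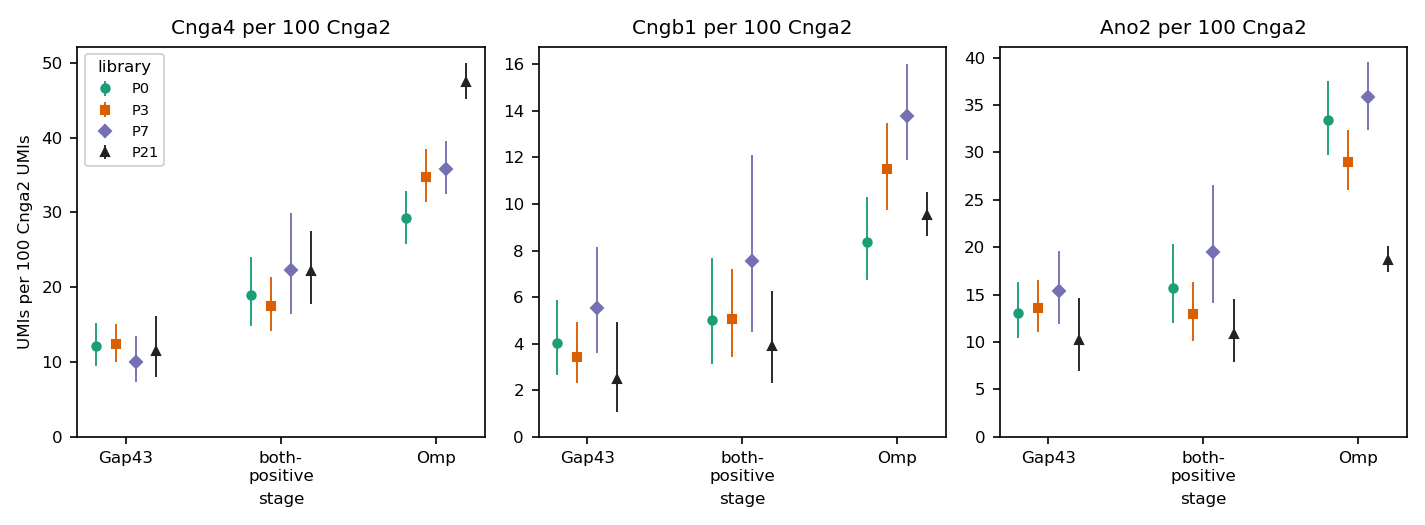
UMIs of Cnga4, Cngb1 and Ano2 per 100 Cnga2 UMIs by stage, 1 symbol per library, with 95% exact conditional binomial bars that cover counting error only. Within each library all 3 ratios are highest in Omp cells, and there the P21 library is highest for Cnga4 (47.5) and lowest for Ano2 (18.7).

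Taking the 3 subunit genes of the cyclic nucleotide-gated channel together, Cnga2 made up 86.1%, 86.4%, 86.5% and 87.8% of their UMIs in Gap43 cells of the P0, P3, P7 and P21 libraries. In both-positive cells the share was 80.7%, 81.6%, 77.0% and 79.3%. In Omp cells it was 72.7%, 68.4%, 66.8% and 63.7%, with an exact binomial interval of 70.5 to 74.9% at P0 and 62.6 to 64.8% at P21. The Cnga2 share was alike in the 4 libraries at the earliest stage and lower in Omp cells in each of them.

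Between ages, the subunit genes and the chloride channel gene differed in Omp cells. Cnga2 was 1.63 times higher in the P21 than in the P0 library (1.53 to 1.74, counting error only), Cnga4 2.66 times (2.37 to 2.99) and Cngb1 1.85 times (1.49 to 2.33). Ano2 was 0.912 times its P0 level (0.809 to 1.03). Of the genes measured (20 UMIs and 50 CPM in either library), 12.4% of 3534 were at least 1.5 times higher in the P21 library and 10.7% at least 1.5 times lower. The 4 measured members had 3 at least 1.5 times higher. Slc24a4 lay under the limit for a measured gene, and its ratio was 1.77 (1.11 to 2.95).

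The choice of the earlier library matters for Cngb1, which was 1.39 times higher than at P3 and 1.04 times the level at P7 (0.884 to 1.23). Cnga4 was 2.01 to 2.66 times higher and Cnga2 1.52 to 1.68 times higher than in the other 3 libraries. For Ano2 the ratio ranged from 0.791 against P7 to 1.08 against P3. Omp was itself higher in Omp cells of the P21 library, at 6473 CPM against 3554 CPM at P0, and the 13 non-neuronal markers summed to 32.8 CPM there against 103 CPM at P0. The part of these shifts in the age differences was not tested.

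At the earlier stages the same comparison rests on fewer UMIs. In both-positive cells, P21 against P0, Cnga2 was 1.47 times higher (1.28 to 1.68), Cnga4 1.72 times (1.27 to 2.32) and Ano2 1.01 times (0.689 to 1.48). Of 3668 genes measured there, 12.8% were at least 1.5 times higher. In Gap43 cells Cnga2 was 1.37 times higher (1.19 to 1.56), and the interval for Cnga4, 0.856 to 1.93, included 1. Of 3745 genes measured in Gap43 cells, 9.32% were at least 1.5 times higher.

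The ratios between genes do not depend on the total by which levels are scaled. In Omp cells Cnga4 over Cnga2 was 1.63 times higher at P21 than at P0 (1.43 to 1.86), 1.37 times than at P3 and 1.33 times than at P7. Ano2 over Cnga2 was 0.559 times that of P0 (0.487 to 0.642), 0.643 times that of P3 and 0.522 times that of P7. In Gap43 cells all 3 P21 ratios for Cnga4 had intervals that included 1, the one against P0 being 0.612 to 1.45. Per Cnga4 UMI, Omp cells held 1.14, 0.834, 0.998 and 0.393 Ano2 UMIs in age order.

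Omp cells were split by their thinned Omp UMIs into 2 to 3, 4 to 7 and 8 or more, since the P21 library held more cells with much Omp (576 of 792 with 8 or more, against 62 of 322 at P0). Among cells with 8 or more, Cnga4 over Cnga2 was 0.374, 0.402, 0.347 and 0.504 in age order, so P21 remained the highest. That bracket has no upper end, so Omp levels in it may still differ between libraries. Among cells with 4 to 7, Cnga4 over Cnga2 was 0.256, 0.339, 0.370 and 0.396. There the P21 interval of 0.353 to 0.444 covered the P7 value. Among cells with 2 to 3 it was 0.319, 0.281, 0.372 and 0.301, where the P21 interval of 0.195 to 0.454 covered the other 3 values. Ano2 over Cnga2 was lowest at P21 in each bracket: 0.275, 0.241, 0.280 and 0.117 with 2 to 3 UMIs, 0.316, 0.271, 0.339 and 0.179 with 4 to 7, and 0.473, 0.352, 0.389 and 0.191 with 8 or more. With 2 to 3 UMIs the P21 value rested on 12 Ano2 UMIs in 26 cells. Its interval of 0.0583 to 0.212 lay below the values of the other libraries but overlapped their intervals.

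**Figure D4:**
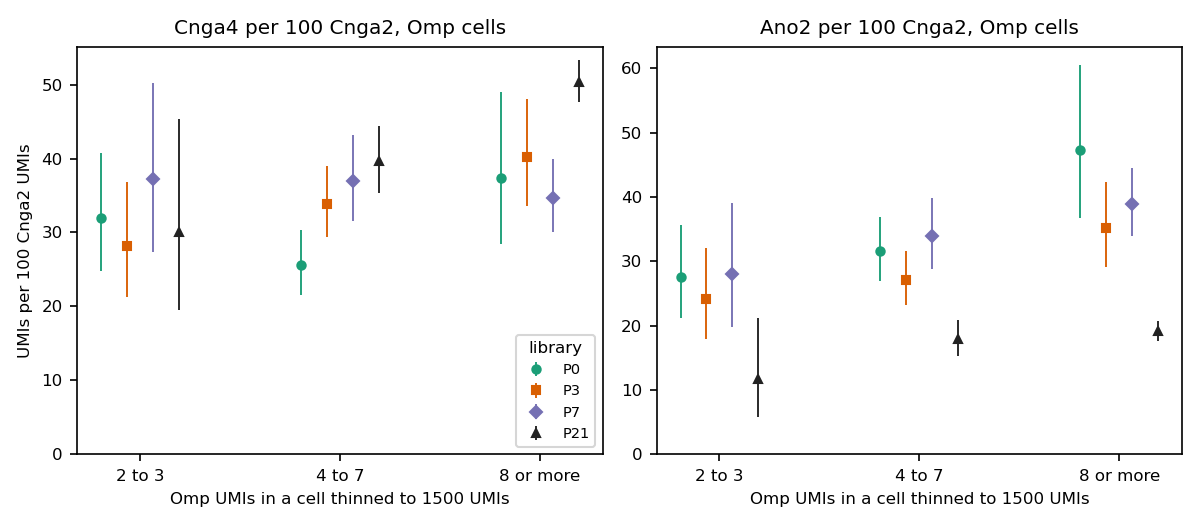
UMIs of Cnga4 and Ano2 per 100 Cnga2 UMIs in Omp cells, split by the Omp UMIs of the thinned cell, with 1 symbol per library and 95% exact conditional binomial bars. For Ano2 the P21 library is lowest in each bracket (11.7, 17.9 and 19.1), and for Cnga4 it is highest at 8 or more (50.4) but not at 2 to 3 (30.1).

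Of the 31 other genes of the transduction pathway, 23 had enough UMIs to be tested. From Gap43 to Omp cells 19 rose, 3 fell and 1 was not called, with a median log2 difference of 1.54. From Gap43 to both-positive cells 18 rose and 3 fell, and from both-positive to Omp cells 18 rose and 0 fell. Of all genes tested, 28.7%, 17.8% and 10.4% rose and 29.0%, 15.7% and 9.43% fell in these comparisons, with median log2 differences of -0.02, -0.02 and 0.01. Several of the pathway genes (Gnal, Adcy3, Stoml3, Gng13 and Umodl1) were also used here as mature-neuron markers.

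Upstream of the channel, Gnal rose mainly at the earlier step, by 2.17 and then 0.77 on the log2 scale, and Adcy3 mainly at the later one, by 1.52 and then 2.19 (edgeR adjusted p at most 3.67e-05 for these 4 differences). Gnas, the stimulatory G protein subunit gene used before Gnal, fell by 2.11 at the earlier step (SE 0.349, edgeR adjusted p = 0.00410). Its mean level was 1573 CPM in precursors, 316 in Gap43 cells and 28.1 in Omp cells. Ric8b, whose product promotes the activity of the Gnal protein, rose by 1.72 and 1.32, and Gng13, the gamma subunit gene, by 1.73 and 0.60.

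Among genes that act on the current or end it, Slc12a2, the cotransporter that loads chloride into the cell, rose by 0.62 and 0.66 on the log2 scale, although its mean level in non-neuronal cells (78.3 CPM) was near that in Omp cells (86.0 CPM). Pde1c, the calcium-calmodulin-dependent phosphodiesterase of cilia, rose by 1.45 and 1.55. Calm2, a calmodulin gene, rose by 0.70 and 0.77, while Calm3 fell by 0.38 at the earlier step. Arrb2, encoding beta-arrestin, fell by 0.66 at the earlier step. Atp2b4, a plasma membrane calcium pump gene, did not pass at either step (edgeR adjusted p = 0.0505 and 0.0576) but rose from Gap43 to Omp cells by 2.64, and its mean level was 25.1 CPM in non-neuronal cells against 9.72 CPM in Omp cells. Best2, another chloride channel gene once proposed for this current, had 0 UMIs in these cells.

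**Figure D5:**
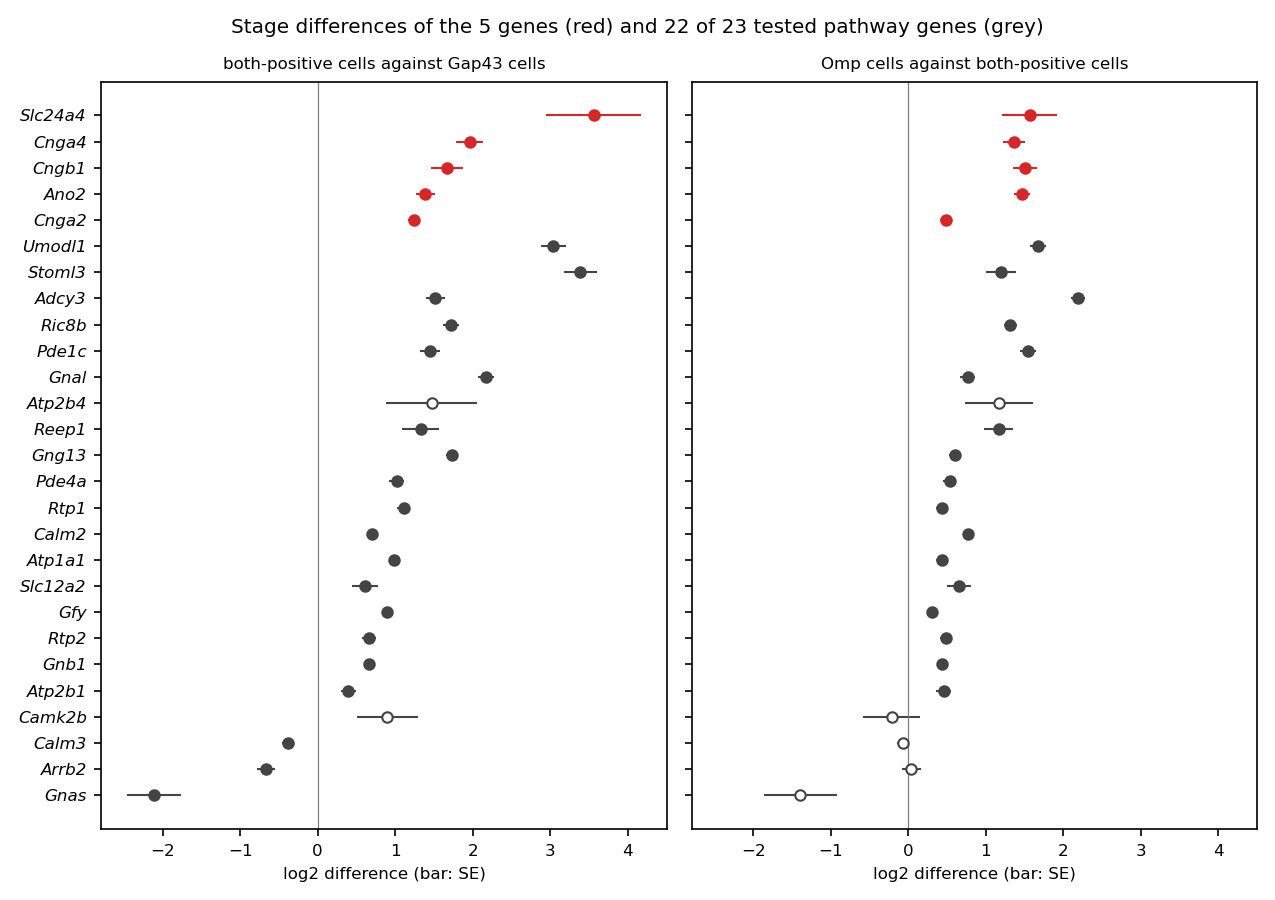
Log2 difference with its SE for the 5 transduction genes (red) and 22 of the 23 tested pathway genes (grey) between Gap43 and both-positive cells (left) and between both-positive and Omp cells (right), filled where the adjusted p was below 0.05. Cnga2 lies at 1.24 on the left and 0.49 on the right, while Ano2 lies at 1.39 and 1.47.

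Of 16 other genes of the same families, 5 were tested. The cyclic nucleotide-gated subunit genes of rods and cones, Cnga1, Cnga3 and Cngb3, had 0 UMIs in the 3 stages, as had Ano3 and Ano7. Slc24a2, another exchanger gene, had 1136 UMIs against 208 of Slc24a4 and rose at both steps, by 1.11 (SE 0.160) and 0.60 (SE 0.138) on the log2 scale. Its level in non-neuronal cells was 0 to 1.32 CPM. Ano6 rose from both-positive to Omp cells (edgeR adjusted p = 0.00137) on 91 UMIs, with a mean level of 34.9 CPM in non-neuronal cells against 8.38 CPM in Omp cells. The part of non-neuronal RNA in the differences of Ano6 and Atp2b4 was not tested. Ano10 fell from Gap43 to Omp cells by 1.07, and Ano8 and Slc24a5 passed in none of the 3 comparisons.

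The genes most like each member were ranked by Pearson's r of log2(CPM + 10) over the 12 sums of stage and library, which share libraries and the stage order. For Cnga2 they were Tom1 (r = 0.988) and Nat14, for Cnga4 Cmip (0.988), Ccdc126 and Epha5, and for Cngb1 Ric8b (0.986), Ier2 and Kcnc4. For Ano2 they were Bcar3 (0.989), Hcn2 and Kcnc4, and for Slc24a4 Pde1c (0.990), Tollip and Gm11992. An r of at least 0.9 was not particular to these genes: 264 to 369 of 10133 genes reached it with a given member. Among the members, r was 0.976 between Cnga2 and Cnga4 and also between Cngb1 and Ano2, and 0.875 between Cnga2 and Ano2.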

How the data were processed

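The deposited values are whole-number counts of UMIs per gene and cell, not normalized by the authors. Cell Ranger 2.1.1, Seurat and mm10 are listed in the submitters' processing notes, and which of them made the tables, with which annotation or filter, is not stated in the sources used here. Cells under 500 genes or over 10% mitochondrial or haemoglobin UMIs (17 cells), Scrublet calls (66, scanpy 1.11.5) and 560 cells under 1500 UMIs were left out, leaving 8483 of 9126 cells. A cell with 3 or more thinned UMIs of non-neuronal markers entered no neuronal stage. Levels use all UMIs of the cells in a stage. CPM carry exact Poisson intervals, ratios exact conditional binomial and shares Clopper-Pearson intervals, all at 95% and covering counting error only; UMIs of 1 library say nothing of the spread between mice.

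Stages were compared with edgeR 4.0.16 (R 4.3.3; TMM, filterByExpr, robust quasi-likelihood test, chosen on simulated data) on 12 sums with library as a block, since each library gives all 3 stages. P-values set the stage differences against their variation between 4 libraries of different ages, with each gene's spread moderated toward that of all genes tested. They therefore do not rest on a gene's own 4 values alone. The block takes out each library's own level. The SE of a log2 difference is its absolute value divided by the square root of that test's F statistic. Calls use an adjusted p below 0.05. Omp, Gap43 and the 13 non-neuronal markers, which chose the cells, were not tested. Named genes are the 5 members, fixed lists of 16 family and 31 pathway genes, and the 3 genes most correlated with each member; some genes that these rules name are not reported here. Members and lists were chosen with earlier results of these data known. The alternatives without shared barcodes and with only cells of at least 4000 UMIs were chosen after seeing the data. Promoter windows are RefSeq's.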

Additional observations from a re-analysis of the deposited data

How the results depend on the processing

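Of 222 alternative values of the members' log2 differences, over 15 member comparisons, 3 did not pass and none changed sign. These were Cnga2 in Omp against both-positive cells without the library block (log2 0.50, adjusted p = 0.109) and in cells of at least 4000 UMIs (0.51, adjusted p = 0.0784), and Slc24a4 in the same comparison with a gate of 3 UMIs (1.40, adjusted p = 0.0845), all in edgeR. With thinned sums Slc24a4 could not be tested. The number of genes called was 5851 in Omp against Gap43 cells (3575 with thinned sums, 4971 to 5714 leaving out a library). It was 3396 in both-positive against Gap43 cells (2246 with no replicate block, 1712 with thinned sums, 2596 to 3236 leaving out a library). In Omp against both-positive cells it was 2015 (826 with no replicate block, 1215 with a gate of 3 UMIs, 837 with thinned sums, 1340 without P3 and up to 1551 leaving out another library). Levels in Gap43 cells as a percentage of the Omp-cell level moved for Cnga2 to 24.9 and 38.6 with gates of 1 and 3 UMIs, and for Ano2 to 12.1 and 18.6, or 12.7 with thinned sums. Cngb1 moved to 17.8 in cells of at least 4000 UMIs. Slc24a4 moved to 10.7 with thinned sums and to -16.8 with the non-neuronal level subtracted, since that level exceeded its own. Cnga2 was highest and Slc24a4 lowest in 12 of 13 settings; with thinned sums Cngb1 was lowest. P21 over P0 in Omp cells moved for Cnga2 to 1.91 with a gate of 1 UMI, 1.53 in cells of at least 4000 UMIs and 1.52 against P7. For Cnga4 it moved to 3.02 with a gate of 1 UMI, 2.30 against P3 and 2.01 against P7, for Cngb1 to 1.39 and 1.04, and for Ano2 to 1.08 and 0.791. Of 224 alternative ratios to Cnga2, 14 moved by more than their counting interval, all among low counts or with thinned sums or deep cells. Where no value above shows it, the cause was not tested. Depth limits Slc24a4 at every stage.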

Other observations

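Omp cells were split by Nqo1, a gene of the dorsal zone of the epithelium, into cells with at least 2 and with 0 thinned Nqo1 UMIs. Cnga2 was 1.19 times higher in Nqo1 cells at P0 (1.05 to 1.34), 1.29 times at P3 (1.16 to 1.44), 1.11 times at P7 (1 to 1.24) and 1.07 times at P21 (1 to 1.14), so it was higher in 4 of 4 libraries. Cnga4, with ratios of 0.998 to 1.13, had intervals that included 1 in each library. Ano2 was 0.840, 0.957 and 0.739 times as high in Nqo1 cells at P0, P3 and P7 and 1.06 times at P21, with the interval under 1 at P7 (0.613 to 0.888). Omp differed by 0.916 to 1.02 times. These intervals cover counting error only, and no test over libraries was made.

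In single Gap43 cells thinned to 1500 UMIs, 444 cells had Cnga2 without Cnga4, 33 had Cnga4 without Cnga2 and 39 had both, of 1659. Cnga4 was found in 8.07% of cells with Cnga2 and in 2.81% of those without it, and the share was higher among cells with Cnga2 in 4 of 4 libraries. For Ano2 the shares were 8.49% and 3.40%, again in 4 of 4 libraries. For Cngb1 they were 2.07% and 1.36%, higher among cells with Cnga2 in 1 of 4. In both-positive cells the share was higher among cells with Cnga2 in 3 of 4 libraries for Cnga4, 2 for Cngb1 and 2 for Ano2. In Omp cells 658 cells had Cnga2 alone of that pair, 171 Cnga4 alone and 630 both. At this depth a missing UMI does not mean that a gene is off.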
